A study of Mus musculus with 14 samples.

Results

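Mouse epiblast stem cells (EpiSC) treated with MM401 in LIF medium were compared between passage 2 and day 3 of the treatment. The comparison takes in 4 of the 14 RNA-seq libraries of the series, chosen by their labels: MM401 P2 (2 libraries) and MM401 day 3 (2 libraries). MM401 inhibits Mll1 (gene Kmt2a), an enzyme that methylates histone H3. Both groups were EpiSC of the genotype CD1/JF1, grown in Knockout DMEM with KSR (a serum replacement), LIF and 100 µM MM401. RNA was taken after 3 days for one group and after 6 days, at passage 2, for the other. No cells without MM401 were sampled at these times, so treatment time, passage and time in LIF medium cannot be told apart. By the series text, the paired libraries are biological duplicates. P2 replicate 2 is titled P2b and its partner P2, and the sources used here do not say whether the cultures were the same. The p-values therefore measure only the spread between paired libraries, shared across all 14 in the fit, and that spread may be technical. Untreated EpiSC (grown with bFGF) and embryonic stem cells (ESC, kept on feeder cells in LIF medium), both CD1/JF1 and 2 libraries each, are quoted as reference levels only.

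Naive pluripotency is the state of the early inner cell mass, held in culture by LIF signalling through Stat3 and by factors such as Esrrb, Tfcp2l1 and the Klf family. Primed pluripotency is the later state of the epiblast, held by FGF and Nodal or activin signalling, with Otx2, Fgf5 and the de novo DNA methyltransferases as its marks. Mll1 places methyl groups on lysine 4 of histone H3 and is known for keeping Hox genes active. Fibroblasts, often used as feeder layers, are known by their collagens, small matrix proteoglycans and PDGF receptors.

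The day 3 libraries held 113221270 and 116086115 counts and the P2 libraries 74952496 and 80383376, against 20831588 to 23677089 in the other 10. Replicates correlated at a Pearson r of 0.9982 at day 3 and 0.9979 at P2 on log2 counts, across genes. Levels are given as CPM, counts scaled to a common library size with TMM factors, and each log2 fold change is followed by ± its standard error. Calls rest on an adjusted p under 0.05 by edgeR's quasi-likelihood test with Benjamini-Hochberg adjustment over all genes tested, and every adjusted p is from that test. Of 16247 genes tested, 11501 were called (70.8%), 6092 of them higher at P2 (37.5% of those tested) and 5409 lower (33.3%). Calls were thus the rule, and size separates the directions more than number does: 2189 genes were called higher by at least 2-fold (13.5%) and 377 lower by at least 2-fold (2.32%). The median log2 fold change of all tested genes was 0.035, with a 5th percentile of -0.756 and a 95th percentile of 1.666. The libraries of the groups did not overlap for 13281 genes, so separation of the 4 values is likewise no mark of any 1 gene.

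Where day 3 or P2 reached a mean of 10 CPM, the ends of the ranking held different kinds of genes. The 15 largest rises were led by matrix genes: Col8a2 (a collagen of basement membranes), Fmod and Prelp (small leucine-rich proteoglycans), Ogn and Abi3bp. Col8a2 stood at 3.07 and 3.72 CPM at day 3 and at 34.6 and 32.5 CPM at P2, a log2 fold change of 3.30 ± 0.10. With them rose Ptx3 (a secreted pattern-recognition protein), Irf7 (a transcription factor of the interferon response), Lpl (lipoprotein lipase), Mylk (myosin light chain kinase), Ednrb (an endothelin receptor), Aldh1a1 (a retinaldehyde dehydrogenase), Cyp2f2, Ms4a4d, Gdpd2 and Fam65c. The 15 largest falls held Dnmt3l (the cofactor of the de novo DNA methyltransferases), Gbx2 (a homeobox factor of the naive network), Porcn (the acyltransferase that lipid-modifies Wnt proteins), Notum (which removes that lipid), Smad7 (an inhibitor of TGF-beta signalling) and Id3 (a target of BMP signalling). Ano1, Slc13a5, Mylpf, Dpp4, A2m, Zfp428, E130012A19Rik and 1700003M02Rik were also among them, and the largest of all was Ano1, a chloride channel, at -2.36 ± 0.11.

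All of these falls were in genes with a higher mean level in ESC than in EpiSC. For 3 of them, picked after their values were seen, the libraries are quoted. Dnmt3l was at 129 and 130 CPM at day 3 and at 30.5 and 31.3 CPM at P2, with 13.7 and 14.2 CPM in EpiSC and 1069 and 1075 CPM in ESC. Porcn was at 55.8 and 57.2 CPM at day 3 and at 12.9 and 11.7 CPM at P2, beside 12.57 and 12.01 CPM in EpiSC and 99.3 and 99.0 CPM in ESC. Mylpf, a myosin light chain, was at 100.1 and 101.7 CPM at day 3 and at 30.7 and 32.3 CPM at P2, beside 11.1 and 12.3 CPM in EpiSC and 146 and 148 CPM in ESC. In all 3 genes the P2 libraries lay between day 3 and EpiSC or near EpiSC.

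**Figure D1:**
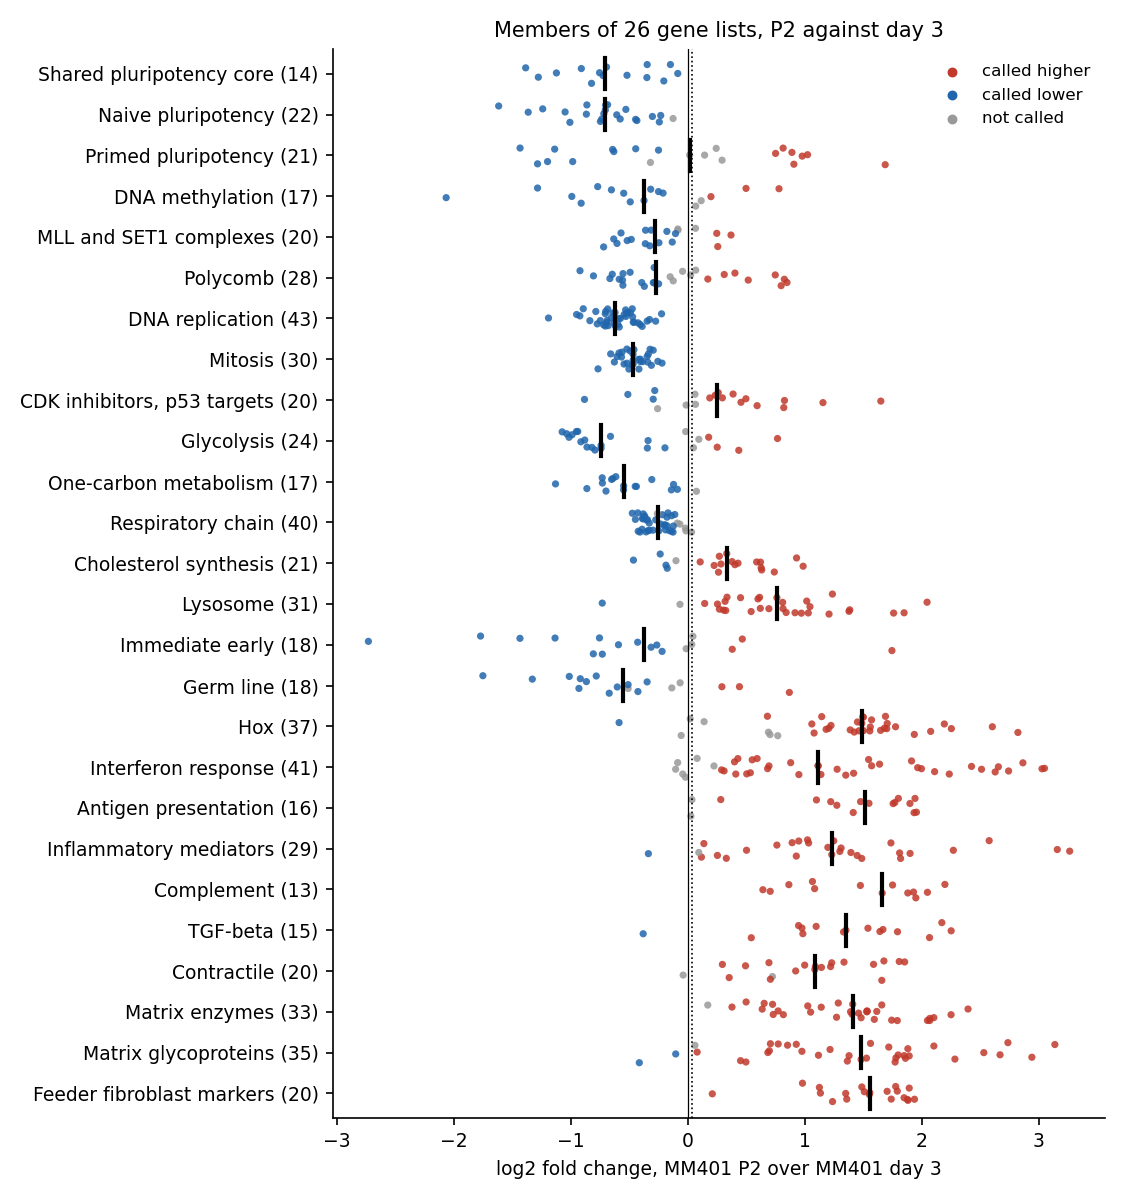
Log2 fold change (x axis) of each tested member of gene lists (y axis, number tested in parentheses), MM401 P2 over MM401 day 3; points are genes coloured by call, bars are list medians, and the dotted line is the median of all tested genes (0.035). Pluripotency, replication, mitosis and glycolysis medians lie to the left and matrix, Hox, interferon and inflammatory medians to the right.

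The labelled cell type was checked first on the 14 genes of the pluripotent core shared by naive and primed cells. All 14 were present in all 4 libraries, and all 14 fell from day 3 to P2, with a median log2 fold change of -0.71. Pou5f1, the central factor of the core, went from 1146 and 1130 CPM at day 3 to 597 and 615 CPM at P2 (-0.91 ± 0.04, adjusted p = 5.44e-24). Its P2 level was below that of EpiSC (950 and 950 CPM) as well as ESC (1518 and 1550 CPM). Nanog fell less, from 943 and 987 CPM to 754 and 761 CPM (-0.35 ± 0.04), and so did Sox2, from 867 and 863 CPM to 699.5 and 661 CPM (-0.35 ± 0.04). Lin28a, an RNA-binding protein that blocks let-7 maturation, was near its day 3 level (-0.09 ± 0.03) and was not called without day 3 replicate 1 (-0.07) or P2 replicate 2 (-0.08), with scaling to total counts (-0.06) or in thinned counts (-0.07). Fgf4 was also close (-0.15 ± 0.03). At the other end, Foxd3 (-1.39 ± 0.05), Dppa2 (-1.28 ± 0.05) and Utf1 (-1.12 ± 0.05) fell most. The core thus spread widely among its own members.

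The markers of feeder fibroblasts moved the other way. All 20 rose (37.5% of all tested genes were called higher), 18 of them by at least 2-fold, with a median log2 fold change of 1.55 and a range from 0.21 (S100a4) to 1.94 (Col3a1). S100a4 was not called without day 3 replicate 2 (0.16) or in the 4 libraries alone (0.18). Col3a1 was at 657 and 651 CPM at day 3 and at 2555 and 2454 CPM at P2, and Pdgfra (a PDGF receptor) went from 67.4 and 68.1 CPM to 259 and 239 CPM. Summed over the list, fibroblast markers came to 5543 and 5570 CPM at day 3 and 16680 and 16294 CPM at P2, beside 4675 and 4742 CPM in EpiSC and 5047 and 5042 CPM in ESC. No library of another group came near the P2 sum. The labels name feeder cells for the ESC culture alone, and the part of fibroblast RNA in the changes below was not tested. In bulk RNA, fewer cells of a type and less RNA per cell cannot be told apart.

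**Figure D2:**
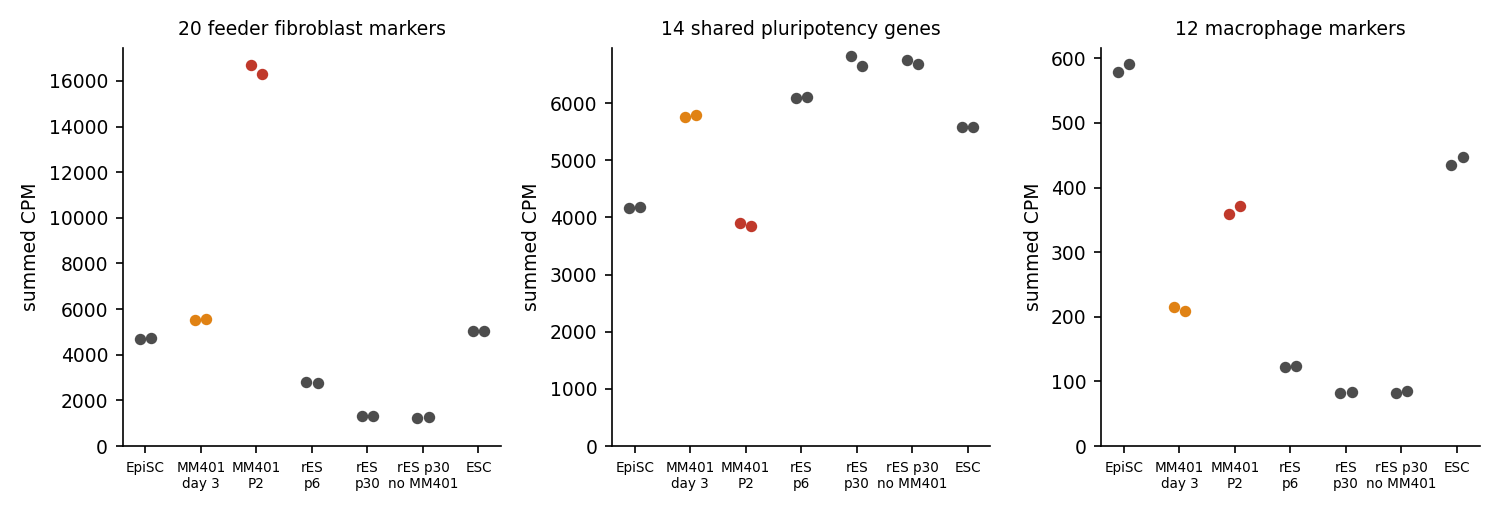
Summed CPM (y axis) of the feeder fibroblast markers, the shared pluripotency genes and the macrophage markers in each of the 14 libraries (points), by group (x axis). MM401 P2 is the highest group for fibroblast markers (16680 and 16294 CPM) and the lowest for the pluripotency genes (3897 and 3857 CPM).

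Because the 14 core genes fell together, the lists were also scaled to the summed core counts of each library, which sets that sum equal in both groups. This scaling moved the median log2 fold change of all tested genes from 0.035 to 0.608 and the share of calls that were higher from 53% to 95.5%. Every log2 fold change is higher by about 0.57 on that scale, so a fall of less than this is no fall relative to the core sum. Relative to the core sum, Pou5f1 (-0.34), Foxd3 (-0.81), Dppa2 (-0.70) and Utf1 (-0.55) were called lower, and Sox2 (0.23), Nanog (0.22), Fgf4 (0.43) and Lin28a (0.49) were called higher. With the sum held equal, core genes that come out lower must be offset by others that come out higher. These values therefore only compare the core genes with each other.

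Genes of the naive network fell almost throughout. Of 22 tested, 21 fell (33.3% of all tested genes were called lower) and none rose, with a median log2 fold change of -0.70; relative to the core sum 12 fell and 6 rose. Gbx2 fell most (-1.62 ± 0.06), from 43.0 and 42.4 CPM to 13.1 and 14.7 CPM, below its level in EpiSC (17.95 and 18.12 CPM). Tbx3, a T-box factor downstream of LIF, went from 448 and 452 CPM to 184 and 166 CPM (-1.36 ± 0.04), still well over EpiSC (19.6 and 18.9 CPM). Manba, a lysosomal mannosidase used as a naive marker, fell by 1.24 ± 0.04 on the log2 scale and Nr0b1, an orphan nuclear receptor of the network, by 1.05 ± 0.04. All 4 were also lower relative to the core sum (Gbx2 -1.04, Tbx3 -0.79, Manba -0.67, Nr0b1 -0.47).

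A second set of naive factors fell by about as much as the core. Esrrb went from 933 and 901 CPM to 578 and 563 CPM (-0.68 ± 0.03), and Klf4 from 334 and 330 CPM to 200.4 and 198 CPM (-0.73 ± 0.04). Klf2 (-0.72 ± 0.07), Zfp42 (-0.70 ± 0.04), Prdm14 (-0.61 ± 0.04) and Tdh, a threonine dehydrogenase of mouse ESC (-0.86 ± 0.03), were alike. The libraries of the groups did not overlap for any of these, as for 13281 of all 16247 tested genes. Tfcp2l1, a Stat3 target, fell least among the called naive genes: 858 and 860 CPM at day 3 and 770 and 694 CPM at P2 (-0.23 ± 0.04), and it was higher relative to the core sum (0.34). Its P2 level remained far above that of EpiSC (57.8 and 59.6 CPM). Dppa3, a maternal factor that guards imprints, was the naive gene not called (9.73 and 10.2 CPM, then 8.90 and 9.36 CPM; adjusted p = 0.286).

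**Figure D3:**
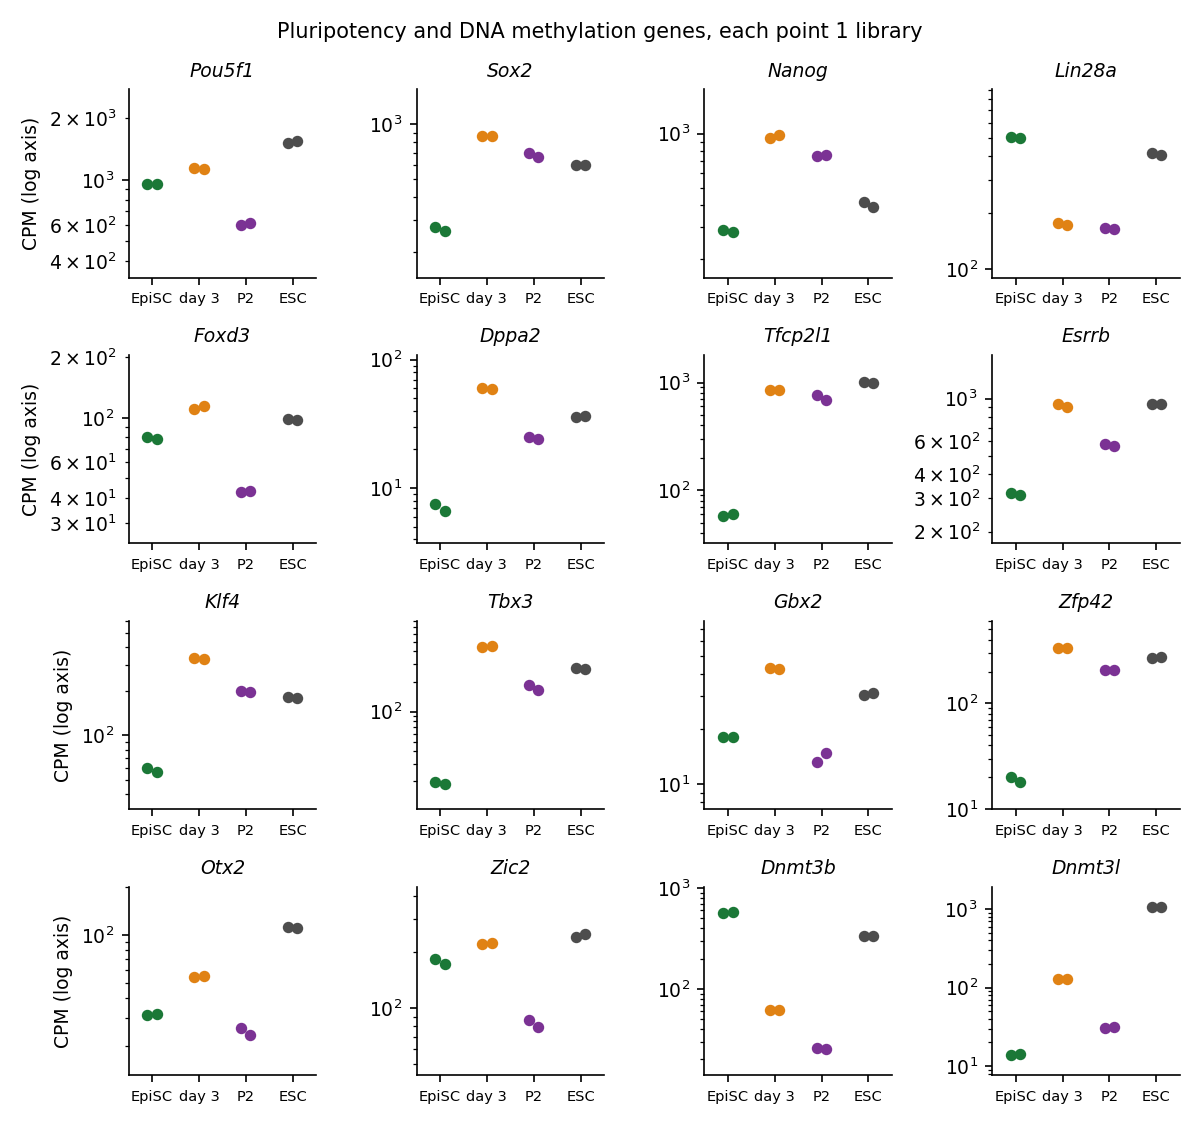
CPM on a log axis (y axis) of core, naive, primed and DNA methylation genes in EpiSC, MM401 day 3, MM401 P2 and ESC (x axis), each point 1 library. P2 lies below day 3 in every panel, by little for Lin28a and Tfcp2l1 and by much for Dnmt3l, Gbx2 and Zic2.

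Primed genes went both ways, as did all tested genes. Of 21 tested, 7 rose (33.3%) and 9 fell (42.9%), with a median of 0.02. Of all tested genes 37.5% were called higher and 33.3% lower, with a median of 0.035. The falls were led by Zic2 (-1.43 ± 0.05), from 221 and 224 CPM to 86.0 and 78.6 CPM, with Dnmt3b, Etv4 (an ETS factor driven by FGF signalling, -1.20 ± 0.04) and Otx2 (-1.14 ± 0.05). Otx2 stood at 54.0 and 55.0 CPM and then at 25.96 and 23.6 CPM, under its EpiSC level. The rises were led by Fzd2, a Wnt receptor (1.69 ± 0.05), and Sall2 (1.02 ± 0.08). Fgf5, the usual primed marker, rose from 0.485 and 0.443 CPM to 0.719 and 1.10 CPM (0.98 ± 0.23), a change between low levels that was not called in counts thinned to the shallowest library (0.03). Pou3f1, T, Fgf8, Sox3 and Car14 were not called, with log2 fold changes between -0.32 and 0.29. Relative to the core sum 13 primed genes rose and 5 fell, and Zic2 (-0.86), Dnmt3b (-0.71), Etv4 (-0.62) and Otx2 (-0.56) were among the latter.

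DNA methylation genes fell in 12 of 17 cases (70.6%, against 33.3% of all tested genes), with a median of -0.37. Relative to the core sum 5 were lower and 10 higher. Dnmt3b, a de novo methyltransferase, went from 62.4 and 61.5 CPM to 25.7 and 25.1 CPM (-1.28 ± 0.04), far under EpiSC (561 and 573 CPM). Dnmt3a, the other de novo enzyme, fell by 0.25 ± 0.04 on the log2 scale. Of the dioxygenases that oxidise methylcytosine, Tet2 fell by 0.99 ± 0.04 and Tet1 by 0.37 ± 0.04, and Tet3 was not called (0.12 ± 0.06). Trim28, which holds repressive chromatin at retroelements and imprints, fell from 2505 and 2491 CPM to 1329 and 1329 CPM. The methyl-CpG binding proteins Mbd2 (0.78 ± 0.06) and Mbd1 (0.50 ± 0.07) rose, as did Uhrf2 (0.20 ± 0.04).

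The target of the inhibitor was not lower in RNA. Kmt2a stood at 105 and 101 CPM at day 3 and at 128 and 117 CPM at P2 (0.25 ± 0.04, adjusted p = 2.65e-06), a small rise. Its libraries did not overlap, as for 13281 of all 16247 tested genes. Of 20 MLL and SET1 complex genes, 14 fell and 3 rose (70% and 15%, against 33.3% and 37.5% of all tested genes). Relative to the core sum 1 fell and 15 rose. Wdr5, the shared scaffold whose contact with Mll1 is blocked by MM401, fell by 0.63 ± 0.03, Rbbp5 by 0.60 ± 0.04, Dpy30 by 0.57 ± 0.04 and Setd1b by 0.72 ± 0.05. Kmt2e (0.37 ± 0.05) and Kat8 (0.26 ± 0.06) rose, and Men1 (-0.08 ± 0.04), Ncoa6 and Kmt2d were not called. Of 28 Polycomb genes, 15 fell and 8 rose (53.6% and 28.6%), or 3 and 20 relative to the core sum. Ezh2, the methyltransferase for lysine 27 of histone H3, fell by 0.92 ± 0.04 and its partner Jarid2 by 0.81 ± 0.03. Cbx8, Phc3 and Phf1 rose by 0.75 to 0.85.

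Hox genes rose across all 4 clusters. Of 39 listed, 37 passed the filter on low counts, and 30 of these rose, with a median log2 fold change of 1.49. Levels were low. The 10 tested Hoxa genes and the untested Hoxa6 summed to 16.9 and 17.3 CPM at day 3 and 47.6 and 46.9 CPM at P2. The 9 tested Hoxb genes summed to 30.01 and 30.36 CPM and then 79.3 and 83.6 CPM. The Hoxd genes went from 18.4 and 19.8 CPM to 55.6 and 55.0 CPM, and the Hoxc genes from 44.9 and 45.4 CPM to 84.3 and 82.3 CPM. All 9 Hoxb genes rose, in a narrow range from 1.06 (Hoxb7) to 1.78 (Hoxb5). In the other clusters the members differed more. Hoxa9 went from 1.15 and 1.85 CPM to 10.1 and 8.27 CPM (2.60 ± 0.18), and Hoxa2 from 0.284 and 0.186 CPM to 1.66 and 1.69 CPM (2.82 ± 0.33).

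Several Hox genes did not pass the test. Hoxc13, at the 5' end of its cluster, was not called (21.3 and 21.7 CPM, then 20.6 and 20.7 CPM, -0.06 ± 0.08), with 0.857 and 0.784 CPM in EpiSC. Its neighbours Hoxc12 (0.02 ± 0.18) and Hoxc11 (0.14 ± 0.34) were not called, nor were Hoxa4, Hoxa13 and Hoxd1, whose highest value was the 1.15 CPM of Hoxa13 in P2 replicate 1. These 3 were called higher under some settings: Hoxa4 (1.68) and Hoxa13 (1.31) without day 3 replicate 1, and Hoxa13 (1.11) and Hoxd1 (1.17) without P2 replicate 2, Hoxa4 with a replicate block (0.86) and Hoxd1 in thinned counts (2.23). Among Hox partners and positional factors, 15 of 22 rose and 4 fell, or 18 and 1 relative to the core sum. Of all tested genes 37.5% were called higher and 33.3% lower. Emx2 (2.16 ± 0.13), Tbx18 (1.93 ± 0.13), Lhx9 (1.69 ± 0.17) and Meis1, a cofactor of Hox proteins (1.61 ± 0.10), rose most. Cdx1, a Hox regulator in the early embryo, fell from 4.69 and 5.11 CPM to 0.787 and 1.08 CPM (-2.38 ± 0.17). Fibroblast markers rose in the same libraries, at a median of 1.55, and their part in the Hox rises was not tested.

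**Figure D4:**
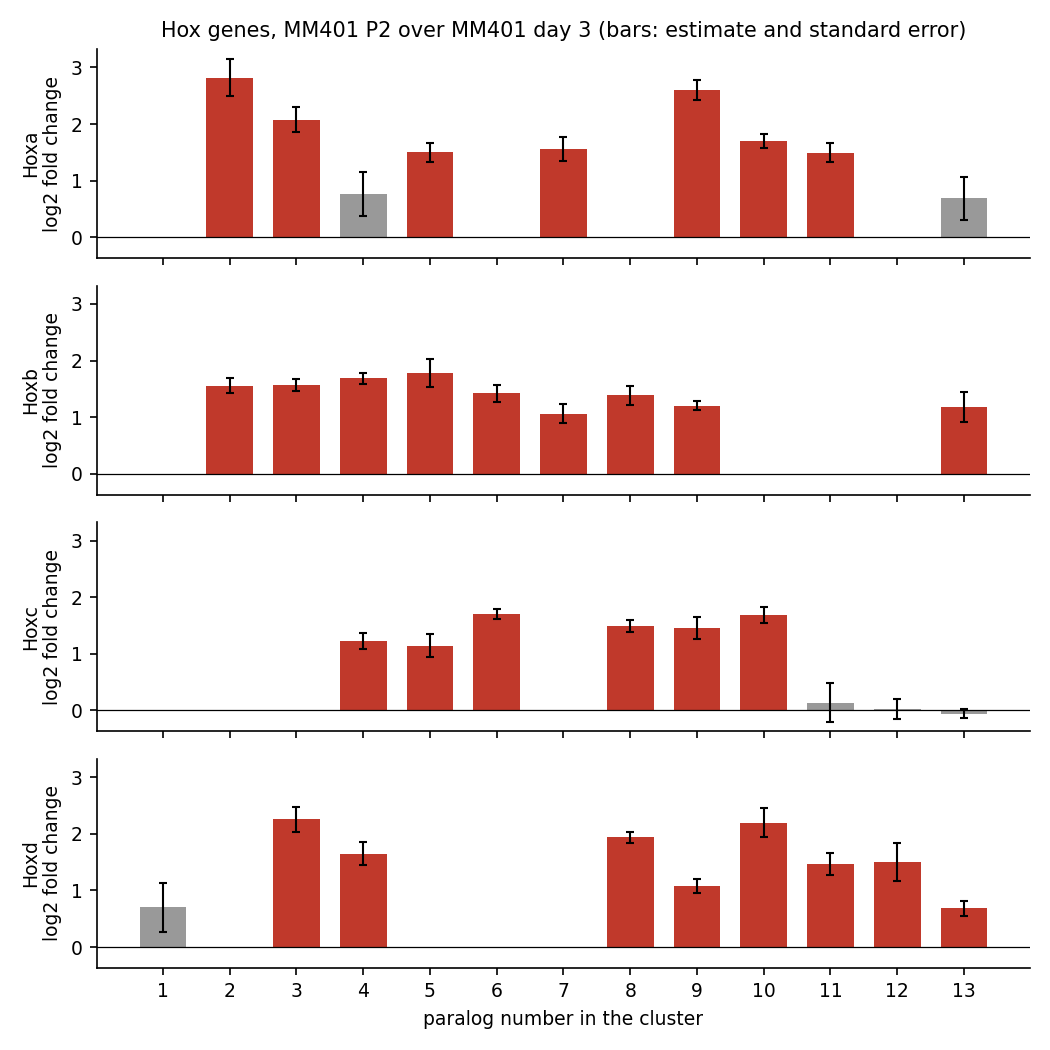
Log2 fold change, MM401 P2 over MM401 day 3 (y axis), of tested Hox genes by paralog number (x axis) in the 4 clusters; bars are estimates with standard errors, red called higher and grey not called; not every tested gene is drawn. All Hoxb genes rose, and Hoxc11 to Hoxc13 stayed near 0.

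Genes of the interferon response rose at P2. Of 42 listed genes 41 were tested, 35 rose, none fell and 6 were not called, with a median log2 fold change of 1.11. Promoter windows from RefSeq (build GRCm38.p6, 250 bases before each start site) are shown for some of the listed genes that hold the interferon-stimulated response element. The element is in capitals. The element was searched as GAAANNGAAA on both strands (TTTCNNTTTC on the other), overlapping matches included. Each sequence is 5′ to 3′ on the strand of its gene. Ifit1, Ifit3, Gbp3 and Isg15 rose, and Oas1a did not.
Ifit1, chr19:34640770-34640828, plus strand: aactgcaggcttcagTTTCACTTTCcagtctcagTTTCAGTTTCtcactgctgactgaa
Ifit3, chr19:34583358-34583431, plus strand: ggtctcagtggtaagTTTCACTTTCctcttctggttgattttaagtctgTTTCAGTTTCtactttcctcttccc
Gbp3, chr3:142559984-142560029, plus strand: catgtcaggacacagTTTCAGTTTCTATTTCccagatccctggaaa
Isg15, chr4:156200860-156200911, minus strand: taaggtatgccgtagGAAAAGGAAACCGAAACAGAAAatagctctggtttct
Oas1a, chr5:120907526-120907560, minus strand: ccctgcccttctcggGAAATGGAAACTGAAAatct

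The element was in the window of 10 of the 31 interferon genes with a RefSeq promoter (32.3%), and 27.0% of their 37 promoters held it, against 2.98% of all 32851 promoters. Of the 10 genes with the element, 8 rose and 2 were not called (Oas1a and Ifitm2), with a median of 1.74. Of the 20 tested genes without it, 17 rose and 3 were not called, with a median of 0.69 and a highest value of 3.03. The matches describe these letters only, and genes on both sides of the split rose.

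Irf7 was the interferon gene with the second largest rise: 4.03 and 3.62 CPM at day 3 and 31.2 and 31.2 CPM at P2 (3.03 ± 0.10, adjusted p = 3.61e-27). In the other groups quoted it was low, at 2.45 and 2.48 CPM in EpiSC and 1.94 and 2.03 CPM in ESC. Rtp4 (3.05 ± 0.22), Ifi44 (2.86 ± 0.17), Mx2 (2.74 ± 0.24), Ifit3 (2.65 ± 0.23) and Ifit1 (2.63 ± 0.14) rose from low levels at day 3. Ifit1, an antiviral RNA-binding protein, was at 1.59 and 1.94 CPM and then at 11.6 and 10.3 CPM. Oasl2 (2.43 ± 0.11), Usp18, an inhibitor of interferon receptor signalling (2.23 ± 0.17), and Isg15, a ubiquitin-like modifier (2.00 ± 0.14), followed.

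Beside Irf7, other signalling genes of the pathway were called. Among receptor genes Ifnar2 rose by 1.14 ± 0.06 and Ifnar1 by 0.50 ± 0.05, and among the transcription factors Stat2 rose by 0.95 ± 0.05 and Irf9 by 0.69 ± 0.07. The RNA sensors Ifih1 (1.42 ± 0.14) and Ddx58 (0.88 ± 0.06) rose as well. Trim25, Xaf1, Ifitm2, Irf3, Oas1a and Mx1 were not called, with values from -0.10 to 0.22. The rises of 12 of the 41 tested interferon genes were larger than that of Col3a1, the fibroblast marker with the largest rise (1.94). The same held for 4 of 29 inflammatory and 5 of 37 Hox genes, and for 446 called genes among all 16247 tested. The comparison with Col3a1 is a ranking only. Fibroblast and macrophage markers were both higher in the same libraries, and their part in these rises was not tested.

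Of 16 antigen presentation genes 14 rose and none fell (median 1.51). B2m, the light chain of MHC class I, went from 102 and 106 CPM to 396 and 410 CPM (1.95 ± 0.05). Erap1, which trims peptides (1.94 ± 0.10), Psmb8, an immunoproteasome subunit (1.93 ± 0.10), and H2-K1, a class I heavy chain (1.90 ± 0.05), rose by about as much. The heavy chain genes have near-identical copies, so the value of H2-K1 is uncertain in its split between them. Psme1 (0.03 ± 0.05) and Psme2 (0.04 ± 0.08), the proteasome activator subunits, were not called.

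Inflammatory mediators rose in 27 of 29 cases and complement genes in 13 of 13, with medians of 1.23 and 1.66. Ptx3 went from 19.4 and 17.4 CPM to 177 and 177 CPM (3.26 ± 0.06), 9.61-fold. Ccl5, a T cell chemokine (3.16 ± 0.28), Lcn2, an iron-scavenging lipocalin (2.58 ± 0.09), and Cxcl5, a neutrophil chemokine (2.27 ± 0.05), also rose. Il33 was the exception that fell (-0.34 ± 0.08, or -0.19 and not called in thinned counts) and Relb was not called. Among the larger rises of complement genes were C1ra (2.20 ± 0.11) and C2 (1.95 ± 0.07).

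**Figure D5:**
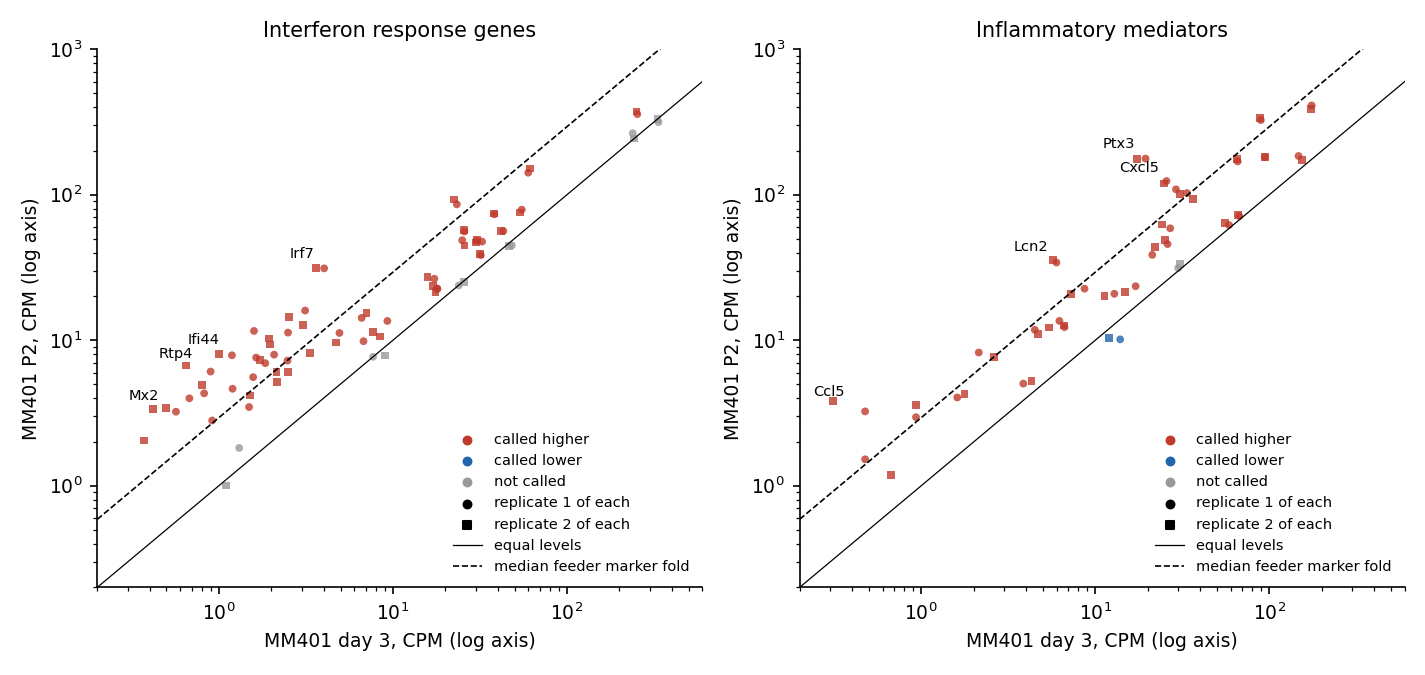
CPM at MM401 P2 (y axis) against CPM at MM401 day 3 (x axis), both on log axes, for interferon response genes (left) and inflammatory mediators (right); each gene has a circle (replicate 1 of each group) and a square (replicate 2). The solid line marks equal levels and the dashed line the median fold of the feeder fibroblast markers; Irf7 and Ptx3 lie above the dashed line.

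Macrophage markers were examined beside the immune genes. Their 12 members summed to 215 and 209 CPM at day 3 and 359 and 371 CPM at P2, and to 579 and 591 CPM in EpiSC. None of the 12 was at 0 in any of the 4 libraries. Of the 12, 10 rose, 1 fell and 1 was not called, with a median of 0.78. Lyz2, a lysozyme of myeloid cells, went from 146 and 143 CPM to 252 and 260 CPM (0.83 ± 0.04), and made up most of the summed CPM. Csf1r, the receptor that macrophages need (0.91 ± 0.13), was at 3.51 and 3.22 CPM and then 6.34 and 6.30 CPM. The complement gene C1qa of macrophages fell (-0.40 ± 0.13) and C1qb was not called (-0.12 ± 0.15), in contrast to C1ra above. Without P2 replicate 2, C1qa was not called (-0.35) and C1qb was called lower (-0.45).

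Among other cell type markers the counts were mixed, where 37.5% of all tested genes were called higher and 33.3% lower. Endothelial markers rose in 7 of 11 and fell in 2, or 9 and 2 relative to the core sum, with Flt1 up by 1.12 ± 0.07 and Robo4 down at -1.46 ± 0.10. Adipocyte markers rose in 4 of 5, with Lpl from 21.5 and 22.9 CPM to 179.9 and 172 CPM (2.98 ± 0.05) and Fabp4, a fatty acid carrier, from 7.31 and 7.82 CPM to 28.0 and 33.4 CPM. Muscle markers rose in 2 of 5 (Acta1 and Actc1), skeletal markers in 2 of 8 (Runx2 1.70 ± 0.10 and Sox9 0.65 ± 0.14, with 3 lower; Sox9 was not called in thinned counts, at 0.43), keratinocyte markers in 2 of 6 (Krt17 and Trp63, with Sfn and Lgals7 lower; Trp63 was not called without day 3 replicate 2, at 0.96, or P2 replicate 1, at 1.55, in the 4 libraries alone or with DESeq2) and glial and crest markers in 2 of 8 (Sox10 and S100b, with Foxd3 and Erbb3 lower). Relative to the core sum 5 muscle markers rose, 5 skeletal markers rose and 1 fell, and 5 glial and crest markers rose and 1 fell. Myog, Cdh5, Krt5 and Krt14 of these lists were not called, and their highest value was the 1.17 CPM of Cdh5 in P2 replicate 2. The lineage regulators Runx2, Sox9, Sox10 and Trp63 were called higher, as given above.

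Primitive endoderm markers rose in 7 of 14 and fell in 1, or 13 and 1 relative to the core sum. Their shares were 50% and 7.14%, against 37.5% and 33.3% of all tested genes. Gata6 (0.20 ± 0.08) was called higher here and was not called without day 3 replicate 2 (0.12) or P2 replicate 1 (0.04), with RLE size factors (0.17), in the 4 libraries alone (0.17), in thinned counts (0.26) or with DESeq2 (0.17). Gata4 and Sox17 were not called, and Sox7 fell by 1.05 ± 0.09. The largest rises, Pdgfra (1.88 ± 0.04) and Dab2 (1.46 ± 0.05), were in genes that fibroblasts also express. Trophectoderm markers rose in 5 of 12 and fell in 4 (41.7% and 33.3%), shares near those of all tested genes, or 7 and 2 relative to the core sum, with Cdx2 (at most 0.204 CPM) and Elf5 (at most 0.0709 CPM) not called. Germ line genes fell in 12 of 18, among them Stra8, a gene induced at entry to meiosis (-1.75 ± 0.15), and Tuba3a (-1.33 ± 0.06). Relative to the core sum 6 germ line genes fell and 5 rose.

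Most genes of the matrix lists rose. Matrix glycoproteins and proteoglycans rose in 32 of 35 cases (median 1.48), matrix enzymes in 32 of 33 (median 1.41) and collagens outside the fibroblast markers in 17 of 22 (median 1.03). Fibroblast markers had a median of 1.55 in the same libraries, and their part in the rises of matrix, contractile, TGF-beta and IGF genes was not tested. Fmod went from 3.64 and 2.91 CPM to 30.3 and 27.3 CPM (3.14 ± 0.11), and Prelp from 8.92 and 8.46 CPM to 68.0 and 65.5 CPM (2.94 ± 0.07). Eln, elastin, rose from 1.07 and 0.673 CPM to 5.58 and 5.52 CPM (2.67 ± 0.17). Of the enzymes, Adamts5, which cleaves aggrecan (2.40 ± 0.07), Adamts12 (2.25 ± 0.12), Loxl3, a collagen cross-linker (2.10 ± 0.04), and the gelatinase Mmp2 (2.07 ± 0.04) rose most. The exceptions in the glycoprotein list were genes of basement membranes: Lama5 (-0.41 ± 0.04) and Nid2 (-0.10 ± 0.04) fell and Lamc1 (0.06 ± 0.04) was not called. The other laminin and nidogen genes of the list rose, from 0.50 (Nid1) to 2.10 (Lama4), apart from Lama1 (0.08 ± 0.04), whose call higher was lost without any of 3 libraries (0.03 to 0.09), with RLE size factors or DESeq2 (0.04), in the 4 libraries alone (0.05) and with no filter (0.08). Nid2 was not called without day 3 replicate 1 (-0.08) or P2 replicate 2 (-0.05), and Lamc1 was called higher without the latter (0.13) or with scaling to total counts (0.09).

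All 13 mesenchymal regulators rose (median 1.13). Snai2 (1.87 ± 0.12), Prrx1 (1.55 ± 0.04) and Twist1 (1.38 ± 0.07), transcription factors of mesenchyme, rose most together with the cadherin Cdh11 (1.48 ± 0.05). Vim, the mesenchymal intermediate filament, rose only from 907 and 904 CPM to 1132 and 1114 CPM (0.31 ± 0.03). Epithelial genes fell in 10 of 19 and rose in 4, or 1 and 16 relative to the core sum. Their shares were 52.6% and 21.1%, against 33.3% and 37.5% of all tested genes. Cdh1, E-cadherin, was at 197 and 193 CPM and then at 178 and 170 CPM (-0.16 ± 0.03), and Krt19 fell by 0.79 ± 0.10.

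Of 20 contractile genes 18 rose (median 1.09), and these are known targets of serum response factor (gene Srf). Myl9, a myosin light chain, rose from 69.5 and 68.6 CPM to 243 and 256 CPM (1.85 ± 0.04), with Lmod1 (1.81 ± 0.07), Synpo2 (1.68 ± 0.19) and Myh11, the smooth muscle myosin (1.66 ± 0.09). Srf itself (115.7 and 108.9 CPM, then 107 and 112 CPM, -0.04 ± 0.04) and its coactivator Myocd were not called. The CArG box, the site that Srf binds, was in the RefSeq window of 5 of 15 contractile genes (33.3%), against 1.38% of tested genes with a RefSeq promoter, counted on both strands; 29.4% of the list's promoters held it, against 1.47% of all promoters. Of the 5, 4 rose and Srf was not called, with a median of 1.14. The 10 genes of the list with a RefSeq window but no box all rose, with a median of 1.09. Mylk, which is not in this list, rose by 2.71 ± 0.06. The box is shown in capitals for Myl9, which had the largest rise within the list, and for Srf.
Myl9, chr2:156775288-156775327, plus strand: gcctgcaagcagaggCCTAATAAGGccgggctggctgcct
Srf, chr17:46556200-46556259, minus strand: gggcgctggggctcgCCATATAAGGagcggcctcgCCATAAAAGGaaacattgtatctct

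Signalling genes changed in both directions, where 37.5% of all tested genes were called higher and 33.3% lower. In the LIF pathway the receptor subunit Osmr rose by 1.72 ± 0.05, Jak2 by 1.23 ± 0.07 and Il6st (gp130, the shared receptor chain) from 143 and 137 CPM to 295 and 255 CPM (0.98 ± 0.05). Lifr, the LIF receptor, was not called (0.03 ± 0.05), and the Stat3 target Bcl3 fell by 0.55 ± 0.04. In all 8 of 15 LIF pathway genes rose and 4 fell, or 14 and 0 relative to the core sum. Of 20 FGF pathway genes 10 rose and 9 fell, or 14 and 3 relative to the core sum. The ligands Fgf10 (2.03 ± 0.08), Fgf7 (1.88 ± 0.06) and Fgf2 (1.35 ± 0.18) and the receptor Fgfr2 (1.38 ± 0.10) rose. Genes that FGF and ERK signalling induces went both ways: Spry4 fell by 1.26 ± 0.05, Etv4 by 1.20 ± 0.04 and Dusp6 by 0.96 ± 0.04, and Spry1 (0.82 ± 0.06), Spred1 (0.62 ± 0.04) and Dusp4 (0.22 ± 0.06) rose.

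Immediate early genes, the first to answer growth signals, fell in 12 of 18 cases and rose in 3, or 6 and 9 relative to the core sum. Of all tested genes 33.3% were called lower and 37.5% higher. The Egr factors led: Egr1 went from 242 and 243 CPM to 87.4 and 92.1 CPM (-1.43 ± 0.04), Egr2 fell by 1.77 ± 0.14 and Egr3 by 2.73 ± 0.16. Fosl2, a Fos family member, rose by 1.74 ± 0.04 against that majority. Jund, Junb and Klf6 were not called.

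Of 15 TGF-beta genes 14 rose and 1 fell (median 1.35, lowest value -0.381). The ligands Tgfb3 (2.25 ± 0.06) and Tgfb2 (2.07 ± 0.09) and the coreceptor Tgfbr3 (2.17 ± 0.06) rose, and so did Thbs1, a matrix protein that activates latent TGF-beta, from 1911 and 1894 CPM to 6999 and 6181 CPM. Smad7, counted in the Nodal and activin list and not among these 15, fell from 309 and 316 CPM to 105 and 103 CPM (-1.59 ± 0.04). TGF-beta induces Smad7, which blocks the TGF-beta receptors. In the Nodal and activin list 8 of 17 rose and 5 fell (47.1% and 29.4%, against 37.5% and 33.3% of all tested genes). Inhba, an activin subunit, rose by 1.49 ± 0.06, and Nodal (-0.44 ± 0.04), its coreceptor Tdgf1 (-0.52 ± 0.03) and Gdf3 (-0.44 ± 0.04) fell. Relative to the core sum Smad7 was the 1 member of that list still lower. Of 20 BMP genes 9 rose and 4 fell (45% and 20%), or 15 and 2 relative to the core sum. The antagonist Grem1 rose by 2.05 ± 0.07, and the BMP targets Id3 (-1.65 ± 0.06) and Id1 (-0.77 ± 0.07), the inhibitor Smad6 (-0.49 ± 0.07) and the ligand Bmp4 (-0.46 ± 0.08) fell. The related Id2 (0.88 ± 0.07) and Id4 (0.38 ± 0.07) rose.

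In the Wnt list 16 of 33 rose and 10 fell (48.5% and 30.3%, against 37.5% and 33.3% of all tested genes), or 26 and 3 relative to the core sum. Secreted antagonists were among the rises: Dkk2 (2.59 ± 0.05), from 19.6 and 20.2 CPM to 122 and 117 CPM, Frzb (1.83 ± 0.09) and Dkk3 (1.73 ± 0.05), with Lgr5, an R-spondin receptor, at 2.39 ± 0.21. Porcn (-2.20 ± 0.06), the ligand Wnt3a (-1.32 ± 0.29), and the transcription factors Lef1 (-0.98 ± 0.06) and Tcf7l1 (-0.63 ± 0.04) fell.

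The IGF axis rose in 13 of 16 cases and fell in 3, or 14 and 0 relative to the core sum. Igf2 went from 278 and 270 CPM to 1018 and 998 CPM (1.88 ± 0.03), Igf1 from 8.65 and 7.73 CPM to 44.4 and 48.1 CPM (2.50 ± 0.08), and Igfbp7 rose by 1.79 ± 0.04. Those that fell were Igfbp2 (-0.65 ± 0.04) and the RNA-binding proteins Igf2bp1 (-0.61 ± 0.03) and Igf2bp3 (-0.34 ± 0.04). Of 28 imprinted genes 19 rose and 5 fell (67.9% and 17.9%, against 37.5% and 33.3% of all tested genes), or 23 and 2 relative to the core sum. H19, the maternally expressed RNA beside Igf2, went from 487 and 463 CPM to 1857 and 1911 CPM (1.99 ± 0.04), so both genes of the pair rose by about as much. Peg10 (-1.31 ± 0.05), Ddc (-0.75 ± 0.07), Mest (-0.53 ± 0.05), Kcnq1ot1 (-0.51 ± 0.06) and Mirg (-0.38 ± 0.06) fell. Rian, of the same domain as Mirg, was level at 0.01 ± 0.04. Xist, the RNA that silences an X chromosome, rose from 35.5 and 42.6 CPM to 119 and 133 CPM (1.69 ± 0.08), below its EpiSC level of 620 and 624 CPM. Without the strand of the reads, its value may hold reads of the antisense gene.

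Replication and mitosis genes fell. All 43 DNA replication genes fell (median -0.62, range -1.19 to -0.22), and all 30 mitosis genes fell (median -0.47, range -0.77 to -0.22), where 33.3% of all tested genes were called lower. Relative to the core sum, 16 replication genes fell and 10 rose, and 1 mitosis gene fell and 18 rose. Rfc5, a clamp loader subunit, went from 118 and 109 CPM to 48.6 and 50.8 CPM (-1.19 ± 0.04), Mcm7, of the replicative helicase, from 397 and 387 CPM to 202 and 204 CPM (-0.95 ± 0.04), and Pola1, the catalytic subunit of polymerase alpha, fell by 0.89 ± 0.04. In mitosis the kinetochore gene Cenpf (-0.77 ± 0.05) fell most, and Top2a went from 857 and 852 CPM to 563 and 562 CPM.

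An E2F site, searched as TTTNGCGC on both strands, was in the RefSeq window of 5 of 35 replication genes (14.3%), against 2.17% of tested genes with a RefSeq promoter; 12.2% of the list's promoters held it, against 1.13% of all promoters. The 5 had a median log2 fold change of -0.69 and the other 30 of -0.62. The site is shown in capitals for Pola1.
Pola1, chrX:93632271-93632308, minus strand: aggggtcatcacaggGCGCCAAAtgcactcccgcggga

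Of 20 CDK inhibitors and p53 genes 12 rose and 4 fell (60% and 20%, against 37.5% and 33.3% of all tested genes), or 17 and 1 relative to the core sum. Cdkn1c (1.65 ± 0.07), Cdkn2b (1.16 ± 0.07) and Cdkn2a (0.83 ± 0.06), inhibitors of cyclin-dependent kinases, rose, and Cdkn1a went from 365 and 362 CPM to 496 and 501 CPM (0.46 ± 0.03). Trp53, the gene of p53, fell by 0.88 ± 0.03 and Bax, a target that promotes cell death, fell by 0.51 ± 0.04. Of 17 genes of the G1 cyclins, E2F and Rb families 13 fell, or 3 relative to the core sum. The 4 that rose were Rbl2 (0.89 ± 0.07), Ccnd2 (0.68 ± 0.04), Cdk6 (0.45 ± 0.10) and Rb1 (0.31 ± 0.06). In the Myc and Lin28 list 13 of 16 fell, or 3 relative to the core sum. Myc went from 35.8 and 35.0 CPM to 21.7 and 22.7 CPM (-0.67 ± 0.05), Mycn fell by 0.67 ± 0.04, and the Myc antagonist Mxd4 rose by 0.91 ± 0.09.

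Genes of energy metabolism fell in most cases. Of 24 glycolysis genes 17 fell and 4 rose, with a median of -0.74, and relative to the core sum 13 fell and 10 rose. Pfkp (-1.01 ± 0.03) and Pfkl (-0.99 ± 0.04), the phosphofructokinases, and the lactate exporter Slc16a3 (-1.03 ± 0.04) fell most beside Eno1 (-1.07 ± 0.13), whose near-identical copies make its low count uncertain. Eno2 (0.77 ± 0.05), Pfkfb3, which sets the activator of phosphofructokinase (0.44 ± 0.05), Hk1 and Slc16a1 rose. Of 40 respiratory chain genes 34 fell and none rose, with a median of -0.25 and a lowest value of -0.47 (Ndufv2); relative to the core sum 39 rose. One-carbon and serine genes fell in 16 of 17 cases, or in 5 relative to the core sum. Shmt2, the mitochondrial enzyme that makes glycine, went from 422 and 422 CPM to 192 and 193 CPM (-1.13 ± 0.03).

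Genes of the amino acid and unfolded protein stress responses fell in 13 of 22 cases, or in 7 relative to the core sum. Of all tested genes 33.3% were called lower. Chac1, a glutathione-degrading target of Atf4, fell by 1.41 ± 0.05, Trib3 by 0.97 ± 0.04 and Psat1 by 0.70 ± 0.03. Slc7a11, the cystine importer (1.57 ± 0.10), Cebpb (1.11 ± 0.07), Ddit3 (0.75 ± 0.06) and Vldlr (0.73 ± 0.07) rose. The chaperone Hspa5 (0.07 ± 0.03) and Xbp1 (-0.03 ± 0.04), marks of the unfolded protein response, were not called. Of 21 cholesterol synthesis genes 16 rose and 4 fell (median 0.33), or 20 and 0 relative to the core sum. Dhcr7, the last reductase of the pathway (0.99 ± 0.04), Sc5d (0.93 ± 0.05), Msmo1 (0.74 ± 0.04) and Hsd17b7 (0.63 ± 0.08) led, and Mvk, an early kinase, fell by 0.46 ± 0.05.

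Of 31 lysosomal genes 29 rose (median 0.76). The cathepsins Ctso (2.05 ± 0.10), Ctsk (1.85 ± 0.07) and Ctsh (1.38 ± 0.11) and the heparan sulfate hydrolase Naglu (1.76 ± 0.06) rose most. Ctsk, the collagen-degrading cathepsin, went from 16.4 and 15.0 CPM to 56.4 and 56.6 CPM. Tfeb, a transcription factor that drives lysosomal genes, was the member of this list that fell (143 and 143 CPM, then 84.5 and 88.1 CPM, -0.73 ± 0.06), and the lysosomal channel Mcoln1 was not called. The lysosomal mannosidase Manba, counted in the naive list and not here, also fell, as given above.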

How the data were processed

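RNA was measured by single-end RNA-seq of RNeasy and DNase purified RNA from Illumina TruSeq libraries, per the labels' protocols. The values used are raw read counts per gene symbol (24015 symbols) as the authors deposited them. The submitters' processing notes list the build mm9 and the tools TopHat2, DESeq and Subread without versions or roles. Neither strand nor the handling of multi-mapping reads is given in the sources used here, so genes with near-identical copies are uncertain. A further 2 columns that match no sample label were not used, and 27 names that had been turned into dates stayed in the fit under their row names. The header of day 3 replicate 1 carries a trailing question mark.

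Genes were kept with filterByExpr, scaled by TMM and fitted with edgeR 4.0.16 (R 4.3.3) over all 14 libraries with 1 mean per group. The test was the robust quasi-likelihood F test, two-sided, with Benjamini-Hochberg adjustment over 16247 genes. The standard error is the absolute log2 fold change over the square root of F. The members and gene lists were chosen with earlier results of these data known, from general knowledge of each pathway, and no list was tested as a set. Named genes are a panel of pluripotency, methylation and control genes, the 15 largest called rises and falls of at least 10 CPM, up to 4 called rises and falls of a list with its exceptions, and all Hox, interferon and cell type marker genes. Laminin, nidogen, Spry, Spred, Dusp and Id genes that moved against named relatives were added after their values were seen, and any other gene is marked. Some genes that this rule names are not reported here, and list counts include them. On simulated counts of 16060 genes, 99% of 100 genes changed 2-fold and 72% of 100 changed 1.25-fold were recovered, and 5.52% of calls were false. There only 200 genes above a minimum count differed between the groups, as many up as down. In the data 11501 genes were called and the larger changes were mostly rises, so the simulated rates need not hold for them.

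Alternatives tried were the DESeq2 1.42.0 Wald test, total counts, RLE size factors, no filter, the 4 libraries alone, a 2-fold threshold (glmTreat), leaving out Rn45s or each library in turn, thinning to the lowest total, a replicate block and scaling to the core genes. Extending the last to every list was chosen after seeing the data. Promoter sequences are from RefSeq tables of build GRCm38.p6, matched by symbol.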

Additional observations from a re-analysis of the deposited data

How the results depend on the processing

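The counts of genes called higher and lower stayed within 1.5 times their values under DESeq2, no filter, total counts, RLE size factors, the 4 libraries alone, thinning and leaving out Rn45s. A test against a 2-fold change (glmTreat) called 1437 genes, 1303 higher and 134 lower, by construction fewer. The replicate numbers do not pair the samples (correlation of the replicate differences of both groups, -0.007, across genes). With a replicate block 6083 genes were called higher and 5439 lower. Leaving out each library in turn gave 5752 to 5879 called higher and 5144 to 5194 lower, the lone library being assumed to vary like the other groups.

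Scaling to the core genes changed list counts most, since it raises every log2 fold change. Called lower were then 8 core genes, 12 naive, 5 primed, 5 DNA methylation, 1 MLL and SET1, 3 Polycomb, 16 replication, 1 mitosis, 3 G1 cyclin, 3 Myc and Lin28, 0 respiratory chain, 7 stress response, 5 one-carbon, 1 epithelial, 6 immediate early, 6 germ line, 2 two-cell stage and 1 skeletal. Called higher were 14 LIF pathway genes, 15 Nodal and activin, 15 BMP, 26 Wnt, 13 primitive endoderm, 5 muscle and 5 glial and crest. On that scale the log2 fold change turned positive for Sox2 (0.23), Nanog (0.22), Fgf4 (0.43), Lin28a (0.49), Tdgf1 (0.0545), Tfcp2l1 (0.34) and Dppa3 (0.45). In the 4 libraries alone 4 primitive endoderm genes were called higher, and 1 keratinocyte gene, as in thinned counts and with DESeq2. Leaving out a library gave 1 to 2 keratinocyte genes. The cause was not tested for these.

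Counts thinned to the lowest library total gave 5333 genes called higher and 4863 lower. Some genes not called were called without 1 library: Fgf8 (1.12 without day 3 replicate 1), Lifr (0.12), Men1 (-0.12) and Krt5 (-0.83) without day 3 replicate 2, Men1 (-0.11) without P2 replicate 1, and Tet3 (0.23), Trim25 (0.14), Hspa5 (0.09), Mcoln1 (-0.12) and Myocd (1.31) without P2 replicate 2. With scaling to total counts Tet3 (0.14), Trim25 (0.11), Hspa5 (0.10) and Kmt2d (0.09) were called as well, and with RLE size factors Men1 (-0.12), Mcoln1 (-0.10), Ncoa6 (-0.12) and Irf3 (-0.12). With 2 libraries a group and no untreated cells at these times, no change can be assigned to MM401, to passage or to time.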

Other observations

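Secreted growth factors of mesenchyme rose in 17 of 20 cases at P2 (median log2 fold change 1.44; 37.5% of all tested genes were called higher). Figf, also named Vegfd, a lymphatic growth factor, went from 8.70 and 9.05 CPM at day 3 to 47.5 and 46.0 CPM at P2 (2.40 ± 0.08). Ptn, a heparin-binding growth factor (2.17 ± 0.07), Gdf10, of the BMP family (2.17 ± 0.08), and Hgf, the ligand of Met (2.08 ± 0.11), were next. Mdk, the relative of Ptn, fell (-0.70 ± 0.04), and so did Pdgfa (-0.34 ± 0.04) and Vegfa (-0.32 ± 0.04); relative to the core sum 19 of the 20 were higher and 1 was lower. Fibroblast markers rose in the same libraries, and their part here was not tested.

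Lineage regulators moved in both directions, where 37.5% of all tested genes were called higher and 33.3% lower. Of 17 tested mesoderm and endoderm genes 9 rose and 3 fell, or 12 and 1 relative to the core sum, with Foxc1 at 3.21 and 4.21 CPM and then 14.7 and 12.3 CPM (1.86 ± 0.13), Osr1 at 3.74 and 3.69 CPM and then 10.7 and 10.4 CPM, and Eomes down at -0.63 ± 0.10. Of 15 tested neural genes 9 rose and 3 fell, or 11 and 1 relative to the core sum: Sox4 rose by 1.07 ± 0.05 and Sox11 by 0.89 ± 0.07, and Tubb3, a neuronal tubulin, fell from 86.7 and 85.9 CPM to 36.6 and 39.1 CPM (-1.19 ± 0.05). Of 5 tested genes of the 2-cell stage 4 fell, or 2 relative to the core sum, Zscan4d among them (-1.97 ± 0.40), from 0.521 and 0.523 CPM to 0.231 and 0.0376 CPM. Mir143hg, the host gene of miR-143 and miR-145, was chosen after its value was seen. It went from 0.659 and 0.709 CPM to 5.85 and 7.77 CPM (3.31 ± 0.21).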
